A study of Caenorhabditis elegans with 24 samples.

Results

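The comparison described here sets fed animals of an efk-1 mutant of the nematode Caenorhabditis elegans against fed animals of the wild type N2. Its members were the 3 libraries labelled efk1 fed and the 3 labelled N2 fed, taken by their labels, which is 6 of the 24 libraries of the series. The efk1 animals carried the allele efk-1(ok3609). N2 is the standard laboratory strain and carries no introduced allele. Every group was made of whole hermaphrodites brought synchronously to the middle of the fourth larval stage (L4) on Escherichia coli OP50, and fed animals were collected at that point. Other groups are used only to place the result: fed zip-2(tm4248) animals (zip2, a bZIP transcription factor mutant), fed cep-1(gk138) animals (cep1, a mutant of the p53 homologue), and efk1 and N2 animals kept without bacteria for 8 h after mid-L4. Each group had 3 libraries of polyadenylated RNA, and each mutant was represented by 1 allele. The labels do not say whether the replicates came from separate cultures, so the p-values measure only the spread between these libraries.

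The gene efk-1 encodes the worm form of eEF2 kinase, a calcium- and calmodulin-dependent enzyme that phosphorylates translation elongation factor 2. The phosphorylated factor binds the ribosome poorly, so that active kinase slows peptide elongation. In animal cells the enzyme is known to be stimulated by AMP-activated kinase and restrained through the TOR pathway, and it is best known for sparing energy when nutrients are scarce. The fed comparison therefore addresses what the mutant transcriptome looks like before food is withdrawn.

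Total estimated counts lay between 14622266 and 30266282 per library over the 6 libraries. Across genes, log2 CPM (counts scaled to library total and TMM factor) correlated with r from 0.988 to 0.989 among the efk1 libraries and from 0.969 to 0.982 among the N2 libraries. Between the genotypes r was 0.958 to 0.977. Markers of intestine, body wall muscle, pharynx, epidermis, neurons, germ line, oocytes and sperm were detected in fed efk1 and fed N2 libraries.

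The mutated gene itself was lower in the mutant. The efk-1 transcript (chromosome III, 6164906 to 6168547, minus strand, WBcel235) stood at 8.83, 7.07 and 9.04 CPM in fed efk1 animals, against 29.6, 36.8 and 38.4 CPM in fed N2 animals. The mutant level was 23.8% of the N2 level, and the groups did not overlap. The log2 fold change was -2.07 (SE 0.20, edgeR quasi-likelihood test, adjusted p = 5.75e-06). Fed zip2 animals had 42.5, 30.8 and 40.9 CPM of efk-1 and fed cep1 animals 69.1, 59.2 and 45.8 CPM, so each of the other 9 fed libraries was above all 3 efk1 libraries. Among starved animals efk-1 had 10.6, 11.5 and 13.1 CPM in efk1 and 73.0, 104 and 81.4 CPM in N2. The remaining reads leave a reduced level and not an absent transcript, and the gene-level counts do not show which exons they came from.

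Apart from efk-1, the direction of change was almost entirely downward. At an adjusted p under 0.05, 240 of 15871 tested genes were called (1.51%), of which 13 were higher (0.0819%) and 227 lower (1.43%) in fed efk1 animals. Of the 240, 230 differed at least 2-fold. All 240 had efk1 and N2 libraries that did not overlap, while over all tested genes 12.3% lay wholly higher and 12.8% wholly lower. The count moved with the library left out: 57 genes were called without efk1 replicate 1, 101 without efk1 replicate 2, 68 without efk1 replicate 3, 125 without N2 replicate 2, 148 without N2 replicate 3 and 243 without N2 replicate 1. In all, 46 of the 240 genes were called in each of the 6 fits that left out 1 library.

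**Figure D1:**
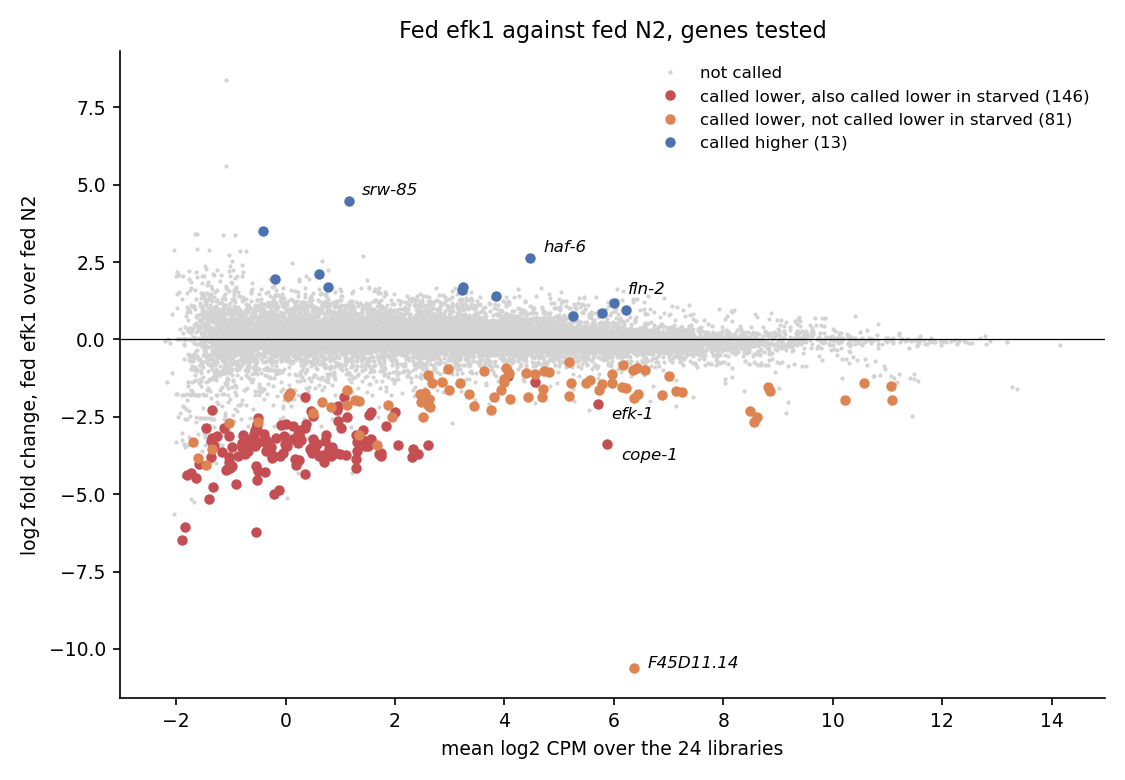
Log2 fold change of fed efk1 over fed N2 (vertical axis) against mean log2 CPM over the 24 libraries (horizontal axis) for the 15871 tested genes, with called genes coloured by set. Most called genes lie below 0, those also lower in starved animals mostly at low levels on the left. The labelled genes efk-1 and cope-1 lie among the called genes of higher level.

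The 227 lower genes fell into 2 sets when the same contrast was read in starved animals, which share no library with the fed ones. In starved efk1 against starved N2, 306 genes were called (1.93%), 110 higher (0.693%) and 196 lower (1.23%). With the replicate number as a block, which paired the starved libraries, 4255 genes were called there, 2299 higher and 1956 lower. Of the 227 genes lower in fed efk1 animals, 146 were also called lower in starved efk1 animals, which is 64.3% of the fed list and 74.5% of the starved list. In the paired starved fit, 148 of the 216 fed-lower genes that entered it were called lower. The other 81 were lower in fed animals without being called lower in starved ones. The split rests on the starved test, so the starved values of the sets are descriptions. The sizes of the sets rest on the number of libraries too: without fed efk1 replicate 1 they were 42 and 11 genes.

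The 146 genes were mostly rare transcripts. Their median CPM was 0.215, 0.252 and 0.217 in the fed efk1 libraries, against 1.96, 2.40 and 2.46 in the fed N2 libraries. Among starved animals the medians were 0.225, 0.311 and 0.231 CPM in efk1 and 3.58, 2.64 and 3.51 CPM in N2. The median log2 fold change was -3.41 in fed and -3.74 in starved animals. The other fed mutants were as low as efk1 on these genes: the medians were 0.317, 0.174 and 0.129 CPM in fed zip2 libraries and 0.0812, 0.324 and 0.395 CPM in fed cep1 libraries. All 3 fed N2 libraries lay above all 9 fed mutant libraries for 141 of the 146 genes, beside 317 of 15871 tested genes. For the 146, the order of N2 above efk1 is fixed by how the genes were chosen. Against the mean of fed zip2 and cep1 animals the median log2 fold change of the set was -0.13.

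**Figure D2:**
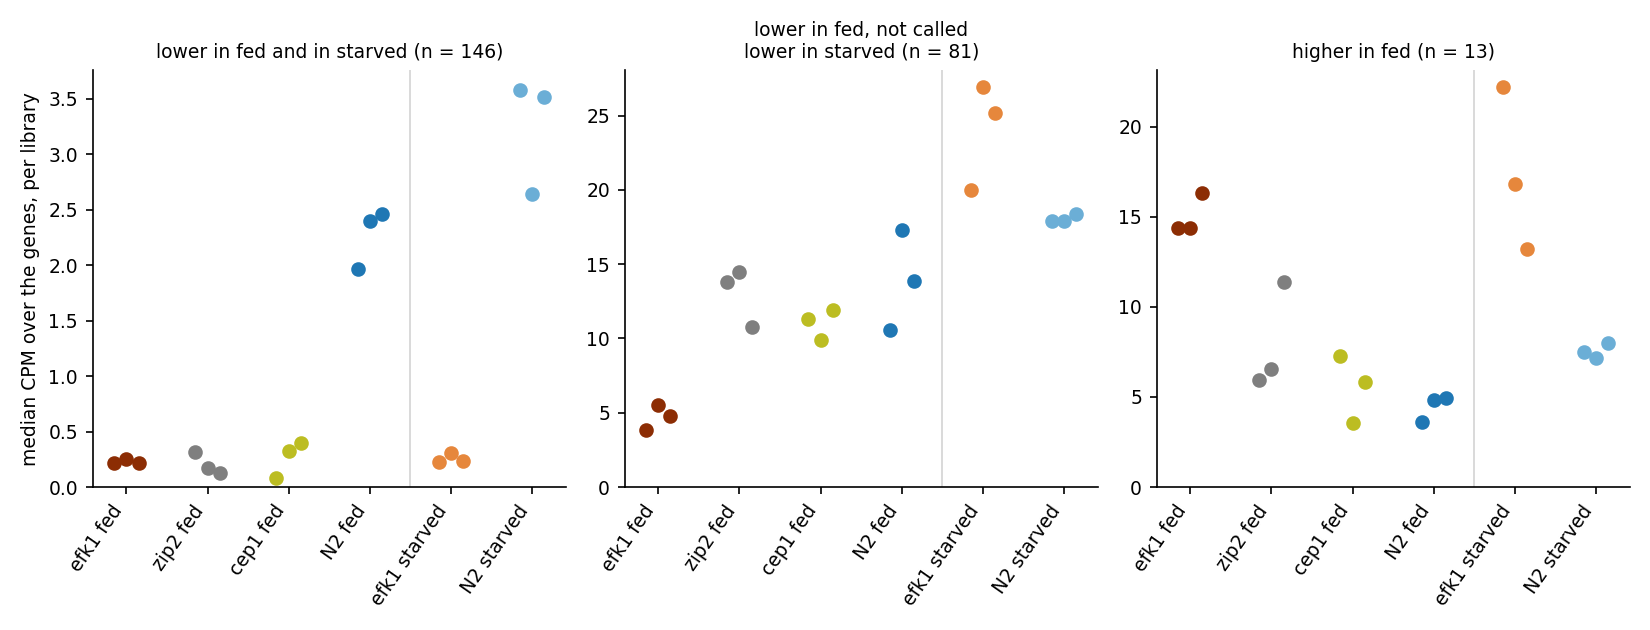
Median CPM over the genes of each set (vertical axis, linear) in each library (points), for fed efk1, zip2, cep1 and N2 and for starved efk1 and N2. The 146-gene set is high only in N2 libraries, fed and starved, the 81-gene set is lowest in the 3 fed efk1 libraries, and the 13 higher genes are highest in efk1 libraries.

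C-type lectin domain genes (clec), which encode secreted or membrane proteins with a carbohydrate-binding fold, were the most numerous of the named families in the 146. Of 169 tested clec genes, 28 were called lower (16.6%, beside 1.43% of all tested genes) and 0 higher (beside 0.0819%), and 27 of the 28 were also lower in starved animals. The 28 had log2 fold changes from -5.0 to -1.62 with a median of -3.37. Their mean level had a median of 0.321 CPM in fed efk1 animals and 3.0 CPM in fed N2 animals. The other members went both ways: the median log2 fold change of the family was -0.01 beside 0.012 over all tested genes, and 83 members lay above 0 and 85 below. At an unadjusted p under 0.05, 44 of the 169 members differed, 43 of them lower. Over all tested genes 1236 of 15871 did, both directions together. The libraries were wholly lower in efk1 for 50 members and wholly higher for 28, beside 12.8% and 12.3% of all tested genes. The summed level of the family was 5387 to 6377 CPM in efk1 and 5538 to 5933 CPM in N2. For clec-219 the fed efk1 libraries had 0.593, 0.964 and 0.362 CPM, against 6.79, 8.04 and 12 CPM in fed N2 libraries. Every N2 library was thus above every efk1 library, and the log2 fold change was -3.75 (SE 0.61, adjusted p = 0.00248). The libraries of fed zip2 gave 0.952, 0.405 and 0.515 CPM of clec-219 and those of fed cep1 0.162, 0.689 and 1.07 CPM. For clec-197 the values were 1.29, 1.01 and 0.795 CPM in fed efk1 and 10.7, 11 and 18.8 CPM in fed N2 (log2 fold change -3.69, adjusted p = 0.0128). The clec-197 call was lost without efk1 replicate 3 (adjusted p = 0.0973).

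Several other secreted protein genes were lower in fed efk1 animals. The insulin-like peptide gene ins-31 had 0.754, 0.551 and 0.578 CPM in efk1, against 7.04, 8.37 and 8.71 CPM in N2. Its log2 fold change was -3.67 (SE 0.61, adjusted p = 0.00276), and it was called in each of the 6 fits that left out 1 library. The trypsin-like protease gene try-8 had 0.970, 1.42 and 1.01 CPM in efk1, against 12.2, 15 and 13.1 CPM in N2 (log2 fold change -3.55, adjusted p = 0.00584). That call was lost without efk1 replicate 1 (adjusted p = 0.0625). In starved animals ins-31 stood at 0.942, 1.55 and 0.508 CPM in efk1 and 12.6, 12.4 and 11.8 CPM in N2, a difference close to the fed one. The SCP-like extracellular protein gene scl-8, named after its values were seen, had 0.108, 0.0918 and 0.289 CPM in efk1, against 1.76, 2.75 and 2.81 CPM in N2. The astacin metalloprotease gene nas-17, named likewise, had 0.377, 0.367 and 0.289 CPM in efk1, against 1.96, 4.57 and 3.59 CPM in N2. The set held 4 scl, 3 nas, 5 fipr (fungus-induced protein related) and 2 nspf genes, and 98 of its 146 genes carry only a clone name. Depth limits these values: clec-219 rests on 37 counts over the 3 efk1 libraries and 622 over the 3 N2 libraries, and scl-8 on 8 and 175.

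Clone-named members were chosen for the size of their change, so their large fall without overlap between efk1 and N2 is fixed by the choice. F09C6.10 had 0.323, 0.505 and 0.145 CPM in fed efk1, against 3.62, 6.42 and 8.52 CPM in fed N2 (log2 fold change -4.16, adjusted p = 0.00303). F26D2.16 reached 0.700, 1.01 and 1.08 CPM in fed efk1, against 8.45, 13.4 and 17.4 CPM in fed N2 (log2 fold change -3.81, adjusted p = 0.00284). In both genes every fed N2 library was above every fed mutant library. A pair of neighbouring genes on chromosome II, K12H6.9 (2824404 to 2824957) and K12H6.4 (2823707 to 2824269), fell by 3.70 and 3.45 on the log2 scale, with adjusted p of 0.00584 and 0.0272. The K12H6.4 call was lost without efk1 replicate 1 (adjusted p = 0.224). Y74C10AR.2 (log2 fold change -3.60) kept its call in each of the 6 fits, and fipr-17 (-3.72) lost it without efk1 replicate 1 (adjusted p = 0.0611).

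A list of male markers was read beside this set. Of its 14 genes 9 were tested, and 7 of these lay below 0. The 2 called lower were clec-207 and her-1 (22.2%, beside 1.43% of all tested genes), and DESeq2 called 1. The libraries were wholly lower in efk1 for 5 of the 9 and wholly higher for 0, beside 12.8% and 12.3% of all tested genes. The median log2 fold change was -0.94, but -0.31 in the fit of only the groups compared and -0.24 with the replicate block as well. The summed level of the list was 23.8 to 28.1 CPM in fed efk1 libraries, 17.8 to 23.8 in fed zip2, 21.8 to 27.3 in fed cep1, and 36.2 to 44.8 in fed N2. Most of that sum in fed efk1 libraries was tra-1, a transcription factor gene of sex determination that is not specific to males. The sum is therefore no measure of male transcripts alone. The tra-1 level was 17.9, 15.8 and 15.6 CPM in fed efk1 and 24.6, 20.9 and 22 CPM in fed N2. That difference did not pass the edgeR test (adjusted p = 0.545). The list member clec-207, also 1 of the 146, had 0.485, 0.642 and 0.362 CPM in efk1, against 4.88, 7.61 and 9.89 CPM in N2 (log2 fold change -3.87, adjusted p = 0.00584). Its call was lost without efk1 replicate 1 (adjusted p = 0.0591). Transcripts of her-1, a secreted protein that promotes male development, had 2 counts over the efk1 libraries and 34 over the N2 libraries. The ciliary male neuron gene cwp-1 had 0.0539, 0 and 0 CPM in efk1 and 0.553, 0.563 and 0.394 CPM in N2, which did not pass the test (adjusted p = 0.0777). Of the same class, cwp-2 had 0.108, 0.0459 and 0.145 CPM in efk1 and 0.654, 0.364 and 0.640 CPM in N2, without overlap. It did not pass the edgeR test either (log2 fold change -2.47, adjusted p = 0.107). In that class cwp-4 had a log2 fold change of 0.36, and pkd-2 overlapped between the genotypes. So did mab-3 (-0.30) and ram-5 (0.31) of the list, and cwp-3 and srj-54 had 0 counts in all 6 libraries. In bulk RNA, fewer cells or animals of a kind and less RNA per cell cannot be told apart. The part of male transcripts in the 146-gene set was not tested.

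Of the 146 genes 4 were also called lower against the mean of the other fed mutants, and one of them was efk-1. With the replicate block in all 3 comparisons, 25 genes were called lower in each. The comparison with fed zip2 and cep1 animals called 177 genes (1.12%), 58 of them higher (0.365%) and the rest lower (0.750%), and it shares the 3 fed efk1 libraries with the comparison against N2. Without fed efk1 replicate 1 it called 18 genes. The other members of the 4 were cope-1, F57A10.2 and R03D7.2, named because they were so few, after their values were seen.

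The gene cope-1, which encodes the epsilon subunit of the COPI vesicle coat, was lower in efk1 in every comparison made. It stood at 8.89, 7.71 and 8.60 CPM in fed efk1 libraries and at 88.3 CPM in each of the 3 fed N2 libraries. The efk1 mean of 8.40 ± 0.616 CPM was 9.51% of the N2 mean (SD, n = 3), and the log2 ratio of -3.39 had a standard error of 0.16 (edgeR adjusted p = 1.52e-11). Fed zip2 libraries had 91.8, 90.5 and 103 CPM and fed cep1 libraries 69.9, 75.2 and 80.6 CPM of cope-1, all far above the efk1 libraries. In starved animals cope-1 was at 7.09, 5.23 and 5.63 CPM in efk1 and at 64.7, 71.0 and 61.7 CPM in N2 (log2 fold change -3.46). The call held in each of the 6 fits that left out 1 library, with a highest adjusted p of 2.63e-09. The gene lies on chromosome III (13426264 to 13427721, plus strand), 7.26 Mb from efk-1.

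F57A10.2 on chromosome V had 0.485, 0.459 and 0.289 CPM in fed efk1, against 5.03, 4.37 and 2.95 CPM in fed N2 (adjusted p = 3.15e-04), a log2 ratio of -3.28 with a standard error of 0.42. In the other fed mutants it had 3.70, 3.12 and 3.60 CPM in zip2 and 1.95, 1.26 and 1.78 CPM in cep1, so all 9 were above the efk1 libraries. R03D7.2 on chromosome II had 10.4, 10.2 and 7.09 CPM in fed efk1, against 24.3, 20.4 and 18.6 CPM in fed N2 (log2 fold change -1.19, adjusted p = 0.00606). The fed call of R03D7.2 was lost without efk1 replicate 3 (adjusted p = 0.0652), and its starved call in 4 of 6 such fits, at adjusted p up to 0.124. Near efk-1 itself, called genes were no denser than elsewhere. They were 4 of 396 tested genes within 1 Mb (1.01%) and 8 of 849 within 2 Mb (0.942%), efk-1 included. The share was 1.54% of tested genes with a position. Relative to efk-1, the called genes clec-158 and col-8 lie at 0.69 and 0.85 Mb. The called genes fipr-18, fipr-19 and fipr-20 lie at 1.29 to 1.30 Mb, and pfas-1 at -1.55 Mb. The part of sequence linked to the allele was not tested.

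**Figure D3:**
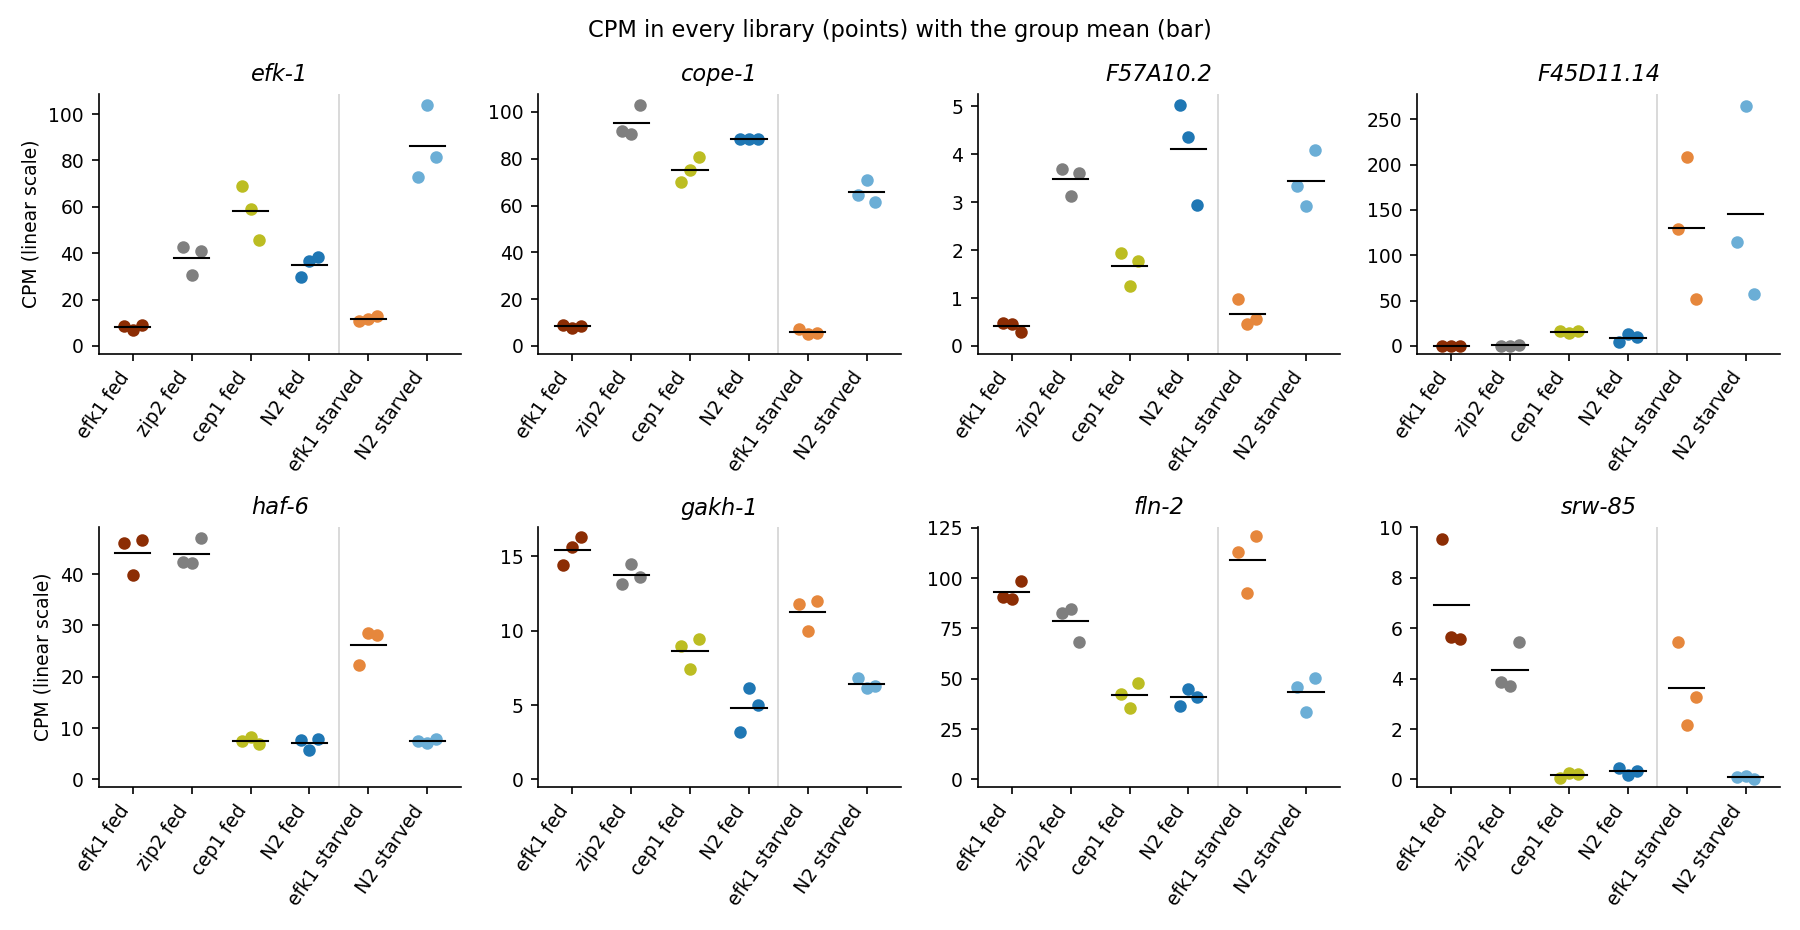
CPM (vertical axes, linear) of 8 genes in every library (points) with group means (bars), for fed efk1, zip2, cep1 and N2 and, right of the grey line, starved efk1 and N2. The genes efk-1, cope-1 and F57A10.2 are low in efk1 libraries under both food conditions, F45D11.14 is at 0 only in fed efk1 and in 2 fed zip2 libraries, and haf-6, gakh-1, fln-2 and srw-85 are high in efk1 and also in fed zip2.

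The 81 genes called lower in fed and not in starved animals had another pattern. Of these, 31 also lay below 0 in starved animals, and the difference between the fed and the starved contrast was itself called for 20. Their median CPM was 3.82, 5.51 and 4.77 in fed efk1 libraries, 13.8, 14.5 and 10.8 in fed zip2, 11.3, 9.93 and 11.9 in fed cep1, and 10.6, 17.3 and 13.9 in fed N2. The 3 fed efk1 libraries were therefore below all others in this median. They lay below all 9 other fed libraries for 65 of the 81 genes, beside 365 of 15871 tested genes. For the 81, the order of efk1 below N2 is fixed by how the genes were chosen. Against the mean of fed zip2 and cep1 animals 52 of the 81 were called lower, and the median log2 fold change was -1.40, beside -1.74 against N2. Under starvation the medians were 20.0, 26.9 and 25.2 CPM in efk1 and 17.9, 17.9 and 18.4 CPM in N2. The number of 52 fell to 2 without fed efk1 replicate 1, to 5 without efk1 replicate 3, to 13 without N2 replicate 2, to 23 without efk1 replicate 2 and to 27 without N2 replicate 3.

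**Figure D4:**
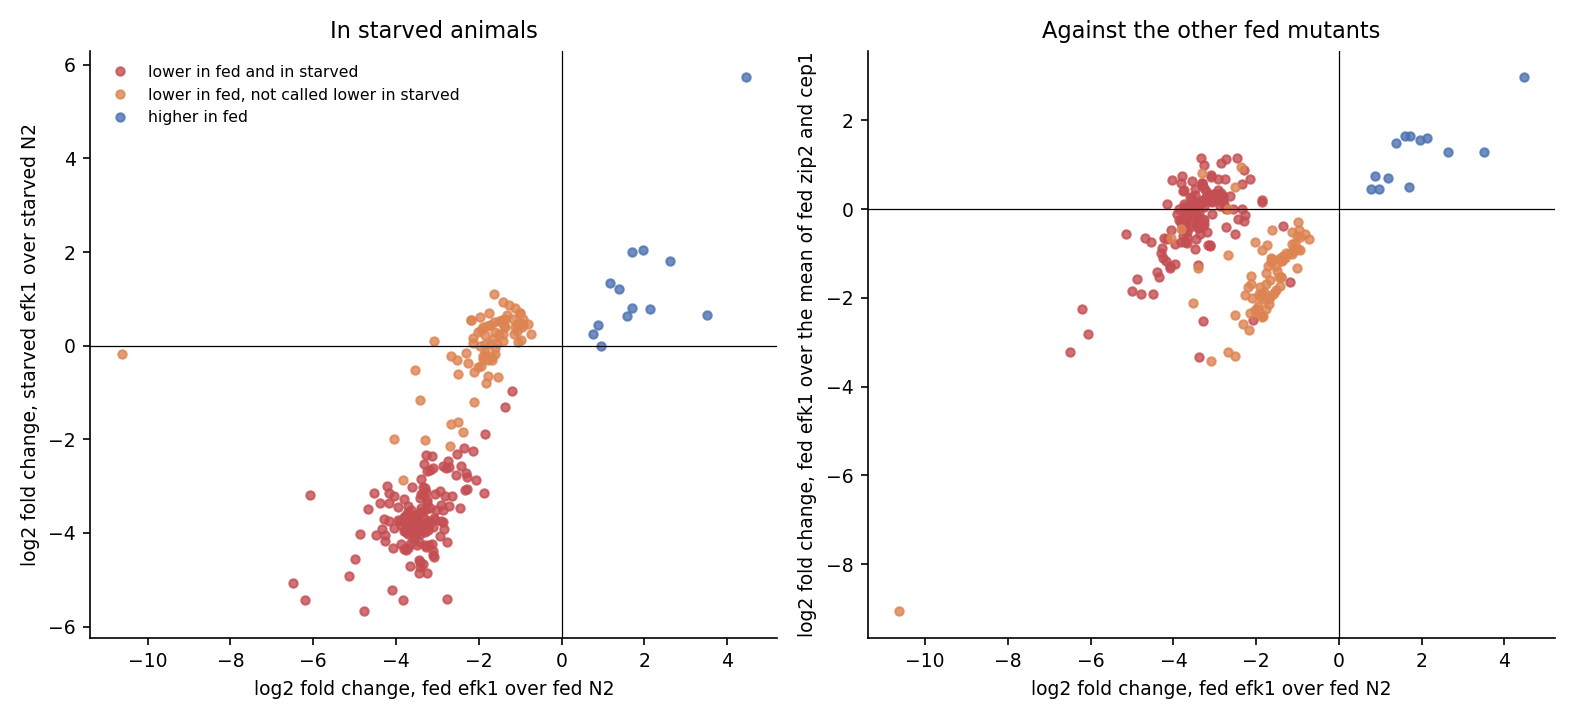
Log2 fold changes of the 240 called genes for fed efk1 over fed N2 (horizontal axes) against those for starved efk1 over starved N2 (left panel) and for fed efk1 over the mean of fed zip2 and cep1 (right panel). The 146 genes (red) are low in starved efk1 by construction and centre near 0 against the other mutants, while the 81 genes (orange) centre near 0 in starved animals and below 0 against the other mutants.

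The set held cuticle collagens. Of 154 tested collagen genes 8 were called lower (5.19%, beside 1.43% of all tested genes) and 0 higher: col-8, col-80, col-96, col-101, col-119, col-142, col-143 and col-179. None of the 8 was called lower in starved animals, and their log2 fold changes in fed animals were -2.68 to -1.31. For col-8 the fed libraries had 49.0, 98.9 and 56.0 CPM in efk1, against 229, 423 and 362 CPM in N2 (log2 fold change -2.31, SE 0.44, adjusted p = 0.00652). Fed zip2 had 408, 440 and 221 CPM of col-8 and fed cep1 786, 464 and 168 CPM. Starved libraries had 276, 480 and 371 CPM in efk1 and 455, 440 and 358 CPM in N2, so those groups overlapped. For col-101 the values were 31.9, 57.8 and 23 CPM in fed efk1 and 118, 228 and 299 CPM in fed N2 (log2 fold change -2.52, adjusted p = 0.0311). No collagen call survived every fit that left out 1 library: col-8 was lost without efk1 replicate 1 (adjusted p = 0.0733), as was col-101 (adjusted p = 0.212). Over the family the median log2 fold change was 0.11, with 85 members above 0 and 69 below, and it was -0.07 without N2 replicate 3 or without efk1 replicate 3. At an unadjusted p under 0.05, 36 of the 154 collagens differed, 34 of them lower. Over all tested genes 1236 of 15871 did, both directions together.

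Other members of the 81 came from several protein families, all named after their values were seen. The uterine lumen gene ule-5 had 15.8, 38 and 24.5 CPM in fed efk1, against 61.2, 120 and 71.7 CPM in fed N2 (log2 fold change -1.69, adjusted p = 0.0239). The ule-5 call was lost without efk1 replicate 1 (adjusted p = 0.214). The serpin gene srp-2 had 2.37, 1.93 and 1.81 CPM in fed efk1, against 5.68, 11.6 and 12.3 CPM in fed N2 (log2 fold change -2.27, adjusted p = 0.00326), and was called in each of the 6 fits. The transthyretin-related gene ttr-42 fell by 2.02 on the log2 scale (adjusted p = 0.00960), and the neuropeptide-like genes nlp-26 and nlp-28 by 1.27 and 1.41 (adjusted p = 0.0126 and 0.0127). These 3 calls were lost in at least 1 fit without a library, at adjusted p of 0.102 (without efk1 replicate 1), 0.104 and 0.132 (both without N2 replicate 2). The clone-named gene T04A11.1 on chromosome IV had 9.11 ± 0.965 CPM in fed efk1, against 33 ± 2.93 CPM in fed N2 (SD, n = 3 each), without overlap. The log2 ratio was -1.86 with a standard error of 0.23 (adjusted p = 2.41e-04). Its level was 15.3, 14.5 and 10.6 CPM in fed zip2, between efk1 and N2. The small heat shock protein gene hsp-43 (log2 fold change -0.82) and the glutathione transferase gene gst-30 (-2.13) were the called members of the stress and detoxification lists. The hsp-43 call was lost without N2 replicate 2 (adjusted p = 0.296) and the gst-30 call without efk1 replicate 1 (adjusted p = 0.0854).

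The gene F45D11.14 on chromosome II (1004616 to 1006475) had no count in any fed efk1 library, against 4.78, 13.1 and 9.50 CPM in fed N2. Taking 3 counts over the group as the limit for efk1, its level was at least 176-fold lower (adjusted p = 0.00340). Fed zip2 libraries had 0, 0 and 1.63 CPM and fed cep1 libraries 16.9, 14.5 and 16.4 CPM. Starved libraries had 129, 208 and 51.8 CPM in efk1 and 115, 265 and 57.2 CPM in N2. The gene was therefore detected in the efk1 strain once food was absent, at levels that overlapped those of N2.

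Lists of adult-stage and oocyte markers were read beside the 81 genes, and no member of either was called by edgeR. In the list of adult-stage and yolk genes 7 of 9 had log2 fold changes below 0, 2 were called by DESeq2, and the median was -1.59. At an unadjusted p under 0.05, 8 of the 9 differed, 7 of them lower. The genes sym-1 (log2 fold change 1.29, wholly higher in efk1) and fat-7 (0.42) lay above 0. Its summed level was 3500 to 5715 CPM in fed efk1, 6281 to 16572 in fed zip2, 12696 to 47434 in fed cep1, and 9202 to 15569 in fed N2. The adult collagen gene col-19 had 463, 837 and 887 CPM in fed efk1, against 1584, 2144 and 1507 CPM in fed N2, without overlap (log2 fold change -1.26, adjusted p = 0.155). The yolk protein gene vit-5 had 115, 245 and 107 CPM in fed efk1, against 381, 1002 and 1196 CPM in fed N2 (log2 fold change -2.47, adjusted p = 0.0807). Against the other fed mutants vit-5 was called lower, with 1175, 1281 and 446 CPM in zip2 and 5556, 3225 and 1142 CPM in cep1 (log2 fold change -3.52, adjusted p = 0.00913). That call was lost without efk1 replicate 1 (adjusted p = 0.125) or replicate 3 (adjusted p = 0.106). All 12 oocyte genes lay below 0 without overlap (median log2 fold change -0.78), beside 12.8% of all tested genes wholly lower. Of the 12, 2 had an unadjusted p under 0.05 and 0 were called by DESeq2. Their sum was 2443 to 3090 CPM in fed efk1 and 4118 to 4975 CPM in fed N2. Fed zip2 libraries ran from 2408 to 5130 CPM and fed cep1 libraries from 3228 to 10814 CPM. Other germ line lists had 0 calls. All 8 mitotic and meiotic germ line genes lay below 0 (6 without overlap, median -0.26). Of 29 major sperm protein genes 28 lay below 0 (median -0.40), but only 2 without overlap. Those 2 of 29 are a smaller share than the 12.8% of all tested genes wholly lower. At an unadjusted p under 0.05 each of those lists had 1 gene, and DESeq2 called none. The list of 12 sperm genes had 0 calls and a median of -0.12, with 9 genes below 0 and 3 above. Its libraries were wholly lower in efk1 for 0 genes and wholly higher for 1, and 0 had an unadjusted p under 0.05. Of the 7 epidermal markers 5 lay above 0 and 2 below, lin-26 (-0.06) and elt-3 (-0.07), with a median of 0.83. None of the 7 was called by edgeR or DESeq2 or had an unadjusted p under 0.05. The libraries were wholly higher in efk1 for 4, beside 12.3% of all tested genes. The largest change of the list was that of bli-1, a collagen of the adult cuticle struts (log2 fold change 1.42). It stood at 444, 285 and 252 CPM in efk1 and 106, 53.6 and 206 CPM in N2. The part of developmental stage in the 81-gene set was not tested.

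Of the 13 genes higher in fed efk1 animals, 12 were also above 0 in starved animals and 6 were called there (9 in the paired fit). All 3 fed efk1 libraries lay above all 9 other fed libraries for 9 of the 13, beside 3.39% of all tested genes. The order of efk1 above N2 is fixed by how the 13 were chosen. Of the 13, 7 were called higher against the mean of fed zip2 and cep1 animals, beside 0.365% of all tested genes. The same fed efk1 libraries entered the choice of the 13 and these counts. The half-molecule ABC transporter gene haf-6, known for a role in RNA interference, had 46.1, 39.9 and 46.6 CPM in fed efk1, against 7.74, 5.76 and 7.92 CPM in fed N2. The efk1 mean was 6.19 times the N2 mean, a log2 ratio of 2.63 with a standard error of 0.22 (adjusted p = 6.94e-07). Starved libraries had 22.2, 28.5 and 28.1 CPM in efk1 and 7.47, 7.17 and 7.97 CPM in N2. Fed zip2 libraries were at 42.3, 42.1 and 47.1 CPM, overlapping efk1, and fed cep1 libraries at 7.43, 8.26 and 6.88 CPM, overlapping N2. Against the mean of those 2 mutants the log2 fold change of haf-6 was 1.28, a mean of 2 unlike groups.

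Levels in fed zip2 nearer to efk1 than to N2 were also seen in 3 further higher genes. The chemoreceptor gene srw-85 had 9.53, 5.64 and 5.57 CPM in fed efk1, 3.86, 3.70 and 5.45 in fed zip2, 0.0406, 0.243 and 0.237 in fed cep1, and 0.453, 0.165 and 0.345 in fed N2. Its log2 fold change against N2 was 4.46 (SE 0.60, adjusted p = 4.16e-04). The gene gakh-1, a kinase homologue that acts in clathrin uncoating in other animals, had 14.4, 15.6 and 16.3 CPM in fed efk1, against 3.22, 6.12 and 4.97 CPM in fed N2 (log2 fold change 1.69, adjusted p = 4.16e-04). Fed zip2 libraries had 13.1, 14.5 and 13.6 CPM of gakh-1. The filamin gene fln-2, which encodes an actin cross-linking protein, had 90.4, 89.5 and 98.7 CPM in fed efk1, against 36.5, 45.1 and 41.1 CPM in fed N2 (log2 fold change 1.18, adjusted p = 0.00840). Fed zip2 libraries had 82.6, 84.6 and 68.4 CPM of fln-2 and fed cep1 libraries 42.5, 35.4 and 47.7 CPM. Calls of haf-6, srw-85 and gakh-1 held in each of the 6 fits that left out 1 library, and fln-2 was lost without efk1 replicate 3 (adjusted p = 0.0577).

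Enzymes of nucleotide and sugar metabolism made up 3 of the other higher genes, with smaller changes. UDP-galactose epimerase, encoded by gale-1, had 143, 136 and 134 CPM in fed efk1, against 69.6, 58.6 and 84.3 CPM in fed N2 (log2 fold change 0.96, adjusted p = 0.00654). In fed cep1 gale-1 was as high as in efk1, at 142, 140 and 147 CPM. The purine synthesis enzyme atic-1 had 121, 128 and 124 CPM in fed efk1, against 69.7, 52.9 and 81.7 CPM in fed N2 (log2 fold change 0.87, adjusted p = 0.0152). The earlier enzyme of that pathway, pfas-1, had 55.3, 60.0 and 59.1 CPM in fed efk1, against 32.6, 31.5 and 38.3 CPM in fed N2 (log2 fold change 0.77, adjusted p = 0.0145). All 3 calls were lost without N2 replicate 2, at adjusted p of 0.0630, 0.140 and 0.102.

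The remaining 6 higher genes had 23.4 CPM or less in every fed efk1 library. The nematode-specific peptide gene nspc-13 had 18.7, 14.4 and 23.4 CPM in fed efk1, against 9.55, 4.83 and 7.19 CPM in fed N2 (log2 fold change 1.39, adjusted p = 0.0192). The fasting-induced lipase gene fil-2 had 0.593, 0.505 and 0.578 CPM in fed efk1, against 0.0503, 0 and 0.0984 CPM in fed N2 (log2 fold change 3.51, adjusted p = 0.0476). Log2 fold changes were 2.13 for F59C6.18, 1.96 for C36C5.15, 1.71 for C36C5.14 and 1.59 for the SCP-like gene scl-5. All of these 6 lost their call in at least 1 of the fits that left out 1 library, with adjusted p up to 0.400 (scl-5, without efk1 replicate 1). Without N2 replicate 2 the adjusted p was 0.156 for nspc-13, 0.340 for fil-2, 0.338 for F59C6.18 and 0.149 for C36C5.15, and for C36C5.14 it was 0.113 without efk1 replicate 1. Without N2 replicate 2 the 13 higher calls were down to 4.

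Genes around eEF2 kinase showed no called change. The substrate gene eef-2 had 6651, 5482 and 6615 CPM in fed efk1, against 8439, 5839 and 6458 CPM in fed N2, and the groups overlapped. Its log2 ratio was -0.15 with a standard error of 0.32 (adjusted p = 0.983), and 0.02 without N2 replicate 1. Calmodulin, encoded by cmd-1, had 408, 384 and 394 CPM in efk1 and 441, 369 and 304 CPM in N2 (adjusted p = 0.983). Of the AMP-activated kinase and TOR pathway 0 of 22 genes were called (median log2 fold change 0.08), with aak-2, a catalytic subunit, at 0.16 and let-363, the TOR kinase, at 0.31. None of the 12 elongation and termination factors (median -0.09), 37 initiation factors (-0.07) or 81 ribosomal proteins (-0.02) was called. Among these 22 pathway and 130 translation genes none had an unadjusted p under 0.05, and DESeq2 called none. The values are transcript levels, and phosphorylation or translation was not measured here.

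Repair, respiration and stress lists gave few calls as well. Base excision repair had 0 of 13 genes called, with all 13 below 0 and a median log2 fold change of -0.19 that ran from -0.31 to -0.14 over the settings tried. Nucleotide excision repair had 0 of 23 called, with 18 below 0 (median -0.14). Other DNA damage response genes had 0 of 31 and nuclear-encoded respiratory chain genes 0 of 53 called, with medians of -0.09 and -0.03. In these 4 lists no gene had an unadjusted p under 0.05, and DESeq2 called none. The list of genes raised by fasting had 0 of 15 called (median 0.02), and that of genes lowered by fasting 0 of 9 (median 0.27). In these lists 1 and 0 genes had an unadjusted p under 0.05, and DESeq2 called none. The fasting-induced gene fil-2, called higher in fed efk1, was not on the list. There was no call among 200 F-box, 60 MATH and BTB domain, 193 nuclear hormone receptor, 64 cytochrome P450 or 27 oxidative stress genes. At an unadjusted p under 0.05 these lists had 17, 2, 5, 9 and 1 genes, and DESeq2 called 1 cytochrome P450 gene and none of the others. Of 100 antimicrobial and infection response genes 7 were called, all lower (6 fipr genes and nlp-28). That share was above the 1.43% of all tested genes called lower. Glucuronosyl and glutathione transferases had 1 of 105 called, ABC transporters 1 of 38 and chemoreceptors 1 of 66. Heat shock and unfolded protein genes had 1 of 26 called. Over all tested genes 1.51% were called, and each of these single calls is too few to compare with that share. A gene that was not called is not thereby shown to have an equal level in both genotypes.

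**Figure D5:**
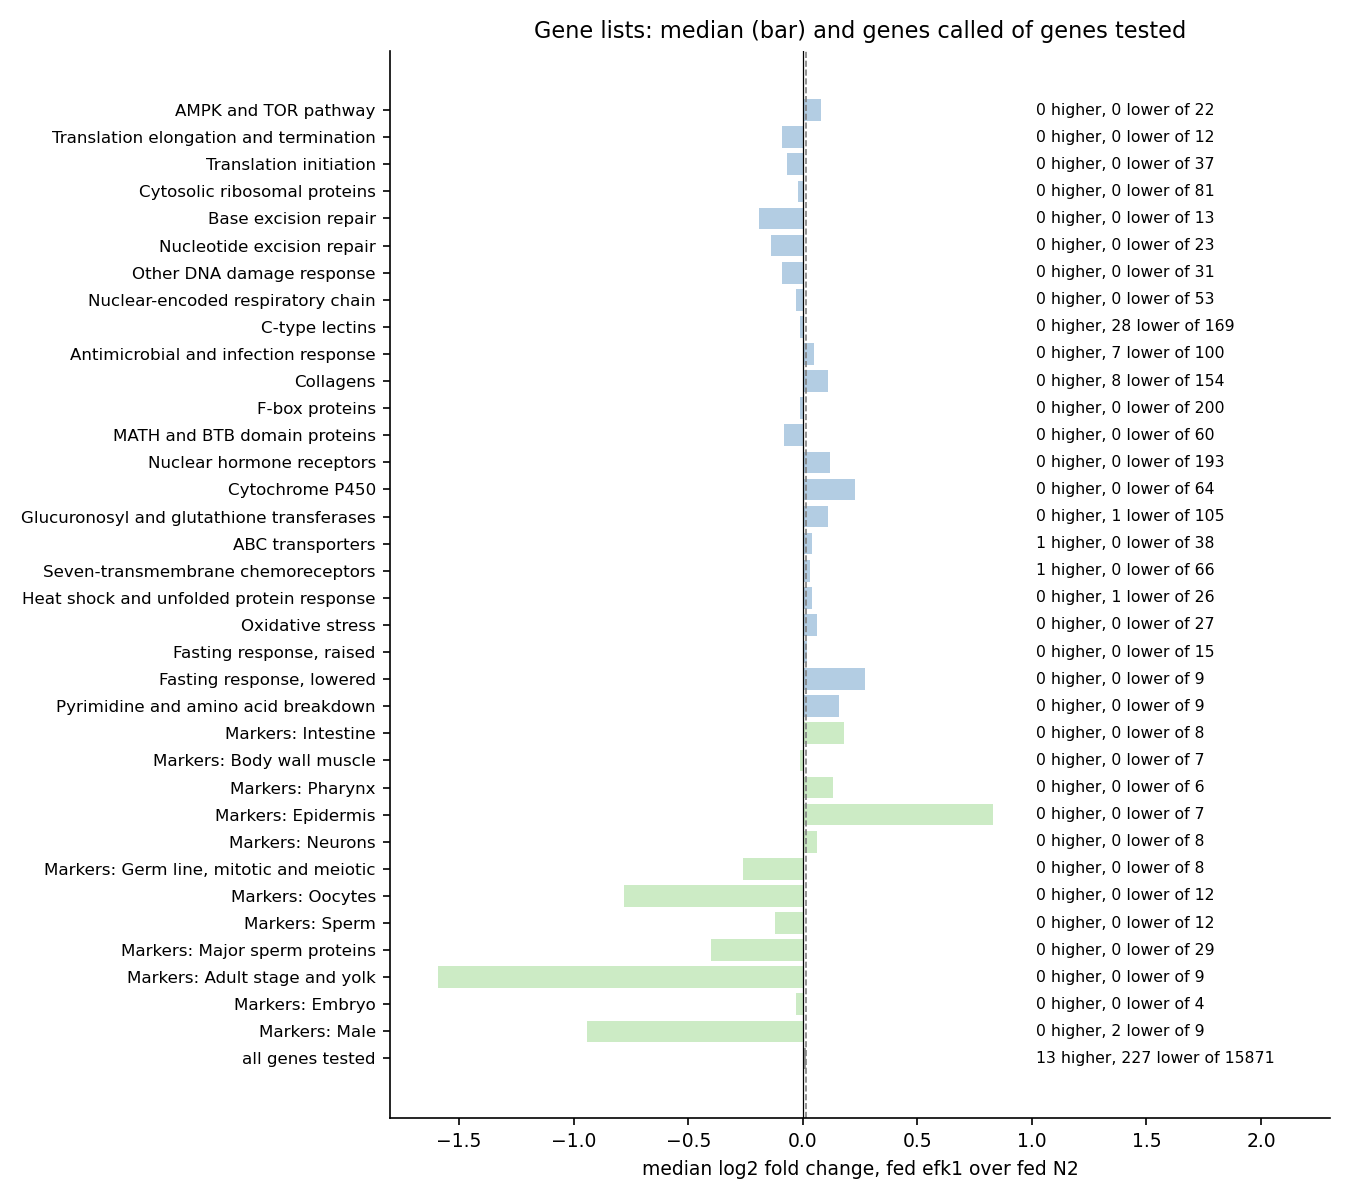
Median log2 fold change of fed efk1 over fed N2 (horizontal axis, bars) for each gene list and marker list (rows), with the numbers called higher and lower of those tested at right and the median of all tested genes as a dashed line. Medians of the translation, repair and respiratory lists lie between -0.19 and -0.02, and adult-stage markers lie lowest.

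The difference between the fed and the starved contrast was itself tested. It was called for 39 genes (0.246%), 0 with a higher and 39 with a lower value in the fed contrast. At an unadjusted p under 0.05 these were 88 and 766 genes, and DESeq2 called 3 and 107. All 39 lay below 0 in fed animals, where 20 were called, and 37 lay above 0 in starved animals, where 12 were called. Their median log2 fold change was -1.18 in fed and 0.86 in starved animals, and 5 of them were collagens. None of the 146 genes lower under both conditions was among the 39. The count was 0 in 7 of the 12 fits that left out 1 library: N2 fed replicate 2, N2 starved replicates 1 and 2, efk1 fed replicates 1 and 3, and efk1 starved replicates 2 and 3.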

How the data were processed

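Per the submitters' processing notes, Trimmomatic 0.36, Salmon 0.9.1 and edgeR were used with build WBcel235, without stated order or roles. The deposited table holds estimated counts per gene, taken as such because 9.51% of nonzero values have a fractional part and library totals differ. Whether counting used strand, and how reads of near-identical genes were shared, is not given in the sources used here, so members of gene families such as clec and fipr and overlapping genes carry that uncertainty. Of 43800 genes, 20670 had no count.

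Estimated counts were rounded and fitted with edgeR 4.0.16 (R 4.3.3): default expression filter (minimum count 10, total 15), TMM, and a robust quasi-likelihood fit of 24 libraries in 8 groups leaving 16 residual degrees of freedom. A common biological coefficient of variation of 29% was estimated. P-values were adjusted by Benjamini-Hochberg over the 15871 genes tested, and genes under 0.05 are called. Standard errors were derived from the log2 fold change and the F statistic. Contrasts were fed efk1 against fed N2, fed efk1 against the mean of fed zip2 and cep1, starved efk1 against starved N2, and the fed minus the starved difference. Alternatives were DESeq2 1.42.0, its size factors in edgeR (RLE), no filter, a fit of only the groups compared, the same fit with the replicate number as a block, and each library left out. The fit was tested on simulated counts with known changes, placed in genes outside the lowest levels. It called 29 of 100 genes with a 2-fold change and 89 of 100 with a 4-fold change, and 7 unchanged genes. Changes of 2-fold would thus often be missed.

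Replicate numbers are shared between groups. Deviations of same-numbered fed efk1 and N2 libraries correlated at 0.224, 0.456 and -0.0782, so the numbers did not pair them. For starved libraries the values were 0.537, 0.752 and 0.391, and the numbers were taken to pair them. Gene positions come from the WBcel235 annotation, where 41521 names matched directly and 590 by locus tag. Named genes are efk-1, all higher genes, the 12 largest decreases at a mean log2 CPM of at least 1, up to 4 called genes per list, and 4 genes each way from the comparison with the other mutants. Others are said to be named after their values were seen. The members and lists were chosen with earlier results of these data known. Reads carried no molecular identifiers, so limits from 3 counts cover counting error only.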

Additional observations from a re-analysis of the deposited data

Results flagged for a closer look

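The difference between efk1 and N2 was not the same in fed and starved animals for 39 genes by the edgeR interaction test. All 39 had the lower value in fed animals, and the count was 0 in 7 of the 12 fits that left out 1 library. For F45D11.14 the fed difference minus the starved difference was -10.46 on the log2 scale (adjusted p = 0.0433), a fitted value that depends on the handling of the 0 counts in fed efk1. For fipr-13, a fungus-induced protein related gene, it was -2.46 (adjusted p = 0.0250): the fed libraries had 0.862, 2.25 and 1.66 CPM in efk1 and 4.12, 7.02 and 5.07 CPM in N2, and the starved libraries 6.80, 9.79 and 8.72 CPM in efk1 and 5.12, 4.19 and 6.18 CPM in N2. The fed call of fipr-13 was lost without efk1 replicate 1 (adjusted p = 0.0669).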

How the results depend on the processing

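Depth limits the 146 genes lower in both food conditions, of which 22 had a mean under 1 CPM in fed N2. Fed efk1 against fed N2 gave 240 genes; 386 were called with only the groups compared and 366 with the replicate block as well, of which 206 and 203 were among the 240, and DESeq2 called 327, 238 of them shared. Higher genes numbered 30 with DESeq2, 47 with only the groups compared and 53 with the block. Leaving out 1 library gave 57 to 243 calls, 4 to 10 higher and 53 to 233 lower. Against the other fed mutants the same settings in that order gave 552 (202 higher, 350 lower), 513 (297 and 216) and 1470 (856 and 614), and 18 to 880 without 1 library (8 to 265 higher, 10 to 615 lower). Starved efk1 against N2 gave 522 (303 higher), 179 (23 higher) and, with the replicate block, 4255 (2299 higher, 1956 lower), and 161 to 316 without 1 library (18 to 147 higher). The interaction gave 110 with DESeq2 (3 higher, 107 lower), 21 without the filter (21 lower), and 0 to 39 without 1 library (0 to 1 higher, 0 to 39 lower). Genes lower in fed and starved numbered 42 to 140 without 1 library. Genes lower in fed and not in starved numbered 135 with DESeq2, 216 with only the groups compared, 129 with the block and 11 to 93 without 1 library. Those also lower against the other mutants were 96 with DESeq2, 33 without the filter, 90 with the block and 2 to 54 without 1 library, and those lower in all 3 comparisons 25 with the block. Genes higher in fed and starved were 11 with DESeq2, 38 with the block and 2 to 5 without 1 library; higher in all 3 comparisons 10, 3 (only the groups compared), 32 and 2 to 4; higher in fed and against the mutants 19, 14, 44 and 2 to 5. List medians in fits of only the groups compared, without and with the block, were 0.05 and 0.05 for C-type lectins, 0.12 and 0.14 for F-box genes, 0.11 and 0.11 for heat shock genes, 0.04 and 0.06 for genes raised by fasting (-0.01 with DESeq2), -0.31 and -0.24 for male markers, and 0.13 with the block for chemoreceptors. Without 1 library the ranges were -0.12 to 0.03 (F-box), -0.00 to 0.11 (chemoreceptors), -0.07 to 0.13 (heat shock), -0.03 to 0.15 (raised by fasting), 0.10 to 0.32 (pyrimidine and amino acid breakdown), -0.07 to 0.36 (collagens) and -1.26 to -0.64 (male), and over all settings epidermal markers ran from 0.49 to 1.15. Calls within 2 Mb of efk-1 were 18 with only the groups compared and 2 to 6 without 1 library. Single genes changed sign in 4 cases, all uncalled: ref-1 ran from -0.00 (without efk1 replicate 1) to 0.47, cmd-1 from -0.04 (without N2 replicate 3) to 0.23, eef-2 from -0.25 to 0.02 (without N2 replicate 1) and eef-1A.1 from -0.27 to 0.01 (without N2 replicate 1). The cause of these shifts was not tested.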

Other observations

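De novo purine synthesis was looked at after atic-1 and pfas-1 had been seen among the higher genes, so it is a description. Of 6 tested genes of the pathway 2 were called higher, and the median log2 fold change was 0.34. The first enzyme, ppat-1, had 9.05, 7.39 and 7.01 CPM in fed efk1, against 3.32, 4.04 and 8.76 CPM in fed N2, and the groups overlapped (adjusted p = 0.840). Adenylosuccinate lyase, encoded by adsl-1, had 129, 122 and 132 CPM in fed efk1, against 120, 115 and 115 CPM in fed N2 (log2 fold change 0.13, adjusted p = 0.930). The branch enzyme adss-1, towards AMP, had 254, 237 and 259 CPM in fed efk1, against 406, 353 and 304 CPM in fed N2 (log2 fold change -0.50, adjusted p = 0.835).

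Some genes were called against the mean of the other fed mutants and not against N2. Y34B4A.5 on the X chromosome had 14.5, 12 and 15.6 CPM in fed efk1, 8.72, 9.84 and 11 in fed zip2, 0.609, 0.932 and 1.03 in fed cep1, and 11, 10.3 and 13.1 in fed N2. Against the mean of zip2 and cep1 its log2 fold change was 2.27 (adjusted p = 2.34e-04), and against N2 it was 0.29 (adjusted p = 0.933). That mean joins 2 unlike groups here, since only the cep1 libraries lay far below the others. The collagen gene col-135 had 0.808, 1.38 and 0.578 CPM in fed efk1, 10.6, 9.08 and 3.86 in fed zip2, 52.6, 27.5 and 6.53 in fed cep1, and 1.36, 8.17 and 4.09 in fed N2. Its log2 fold change was -3.98 against the other mutants (adjusted p = 0.00426) and -2.27 against N2 (adjusted p = 0.154).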
